A study of Rattus norvegicus with 8 samples.

Results

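The 70 cytosolic ribosomal protein genes described here code for the proteins of the ribosome that makes protein from messenger RNA in the cytoplasm. They were taken from the count table by symbol: Rpl or Rps followed by a number, with an optional a or x at the end, plus Rpsa, Rplp0, Rplp1 and Rplp2. Of 28546 gene entries, 75 carried such a symbol, and the 70 with at least 10 counts in at least 3 libraries were kept. They divide into 42 genes of the large (60S) subunit and 28 of the small (40S) subunit. All 70 were among the 14445 genes tested. The 5 others had too few counts: Rpl10a and Rpl23a had 0 counts in every library, Rpl35a had 0 to 3, Rpl38 had 2 to 5 and Rps19 had 4 to 12. Just inside the limit stood Rplp2, with 2 to 11 counts per library, and Rpl7a, with 9 to 22.

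RNA-seq was done on astrocytes of Sprague Dawley rat pups exposed to cells of 12-273 BM, a human melanoma culture, or to their medium. The sh-APP group (3 libraries) met melanoma cells with a short hairpin RNA targeting APP, which codes for the amyloid precursor protein. In the anti-Abeta group (3 libraries) the hairpin was a scrambled one, and an antibody to amyloid beta, a peptide cut from that precursor, was added. The control group (2 libraries) met melanoma cells with the scrambled hairpin and no antibody. Melanoma cells or their medium were thus part of every group, and none of the groups was without them. The labels speak in places of co-culture, of 24 h in medium from melanoma cells, and of astrocyte medium given to melanoma cells, and do not settle which applied. They name the hairpin shAPPa. Whether each library had a culture of its own is not stated, and p-values here cover the spread among these 8 libraries alone, which may be technical.

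Each ribosome holds a copy of nearly every ribosomal protein, and cells therefore make these proteins in matched amounts. Ribosomal protein messages are known for a start at a C followed by a run of C and T bases, the terminal oligopyrimidine (TOP) tract, through which the mTORC1 kinase and the RNA-binding protein LARP1 set how much of the message is translated. Surplus ribosomal proteins are broken down, and unassembled RPL5 and RPL11 bind MDM2, which links faults of ribosome assembly to p53.

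The tract could be read at the annotated starts of the genes. RefSeq promoter windows of the rat assembly GRCr8, each 300 bases long with 250 before and 50 from the start, were at hand for 56 of the 70 genes. A C at the start followed by 4 bases that were each C or T stood in 21 of them, or 37.5%, against 2.78% of 10182 windows of tested genes and 2.63% of all 27457 windows. Shown here are the 4 genes with the largest rise and all 3 with a fall in sh-APP that had this start, since the tract was present on both sides of the response. Each line gives 30 bases before the start and 15 from it, 5′ to 3′ on the strand of the gene, with the C at the start and the unbroken run of C and T after it in capitals. Rps15 stands at chr7:10068101-10068145 on the minus strand, Rps18 at chr20:4933715-4933759 on the plus strand, Rplp0 at chr12:46718376-46718420 on the minus strand, Rpl34 at chr2:221962269-221962313 on the minus strand, Rpl39 at chrX:121195882-121195926 on the minus strand, Rps3a at chr2:173827028-173827072 on the minus strand and Rpl9 at chr14:43247560-43247604 on the plus strand.
Rps15: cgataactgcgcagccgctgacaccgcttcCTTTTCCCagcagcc
Rps18: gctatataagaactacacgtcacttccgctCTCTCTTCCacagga
Rplp0: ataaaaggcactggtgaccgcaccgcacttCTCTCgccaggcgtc
Rpl34: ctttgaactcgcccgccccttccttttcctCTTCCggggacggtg
Rpl39: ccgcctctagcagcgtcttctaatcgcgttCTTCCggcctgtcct
Rps3a: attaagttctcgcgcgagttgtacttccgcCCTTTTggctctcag
Rpl9: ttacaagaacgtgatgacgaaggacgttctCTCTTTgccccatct

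Among the genes shown that rose in sh-APP, the run was 8 bases long in Rps15, 9 in Rps18 and 5 in Rplp0 and Rpl34. Among those that fell it was 5 in Rpl39 and 6 in Rps3a and Rpl9. By direction in sh-APP against control, the start was present in 9 of 23 windows of genes that rose (39.1%), 3 of 11 of genes that fell (27.3%) and 9 of 22 of genes that did not pass the test (40.9%). A looser match was any run of 5 or more C or T bases overlapping the stretch from 5 before to 10 after the start. Such a run was in 76.8% of the 56 windows against 34.2% of tested-gene windows. It was in 17 of 23 windows of genes that rose (73.9%), 10 of 11 of genes that fell (90.9%) and 16 of 22 of the rest (72.7%). The motif CCGGAA, read on both strands and known as the core bound by ETS factors such as GABPA, was in 51.8% of the 56 windows, against 26.6% of tested-gene windows. It was in 52.2% of windows of genes that rose and 45.5% of those that fell. AAGATGG, the core bound by YY1, was in 16.1% against 8.16% on either strand, and its first AA can be the last AA of CCGGAA. These matches describe the letters at an annotated start and show no binding and no start used in these cells.

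The libraries held 34250464 to 47831595 counts, and levels are given as CPM, counts set to a common library size with edgeR's TMM factors. These were 1.04 to 1.06 in sh-APP, 0.99 to 1.03 in anti-Abeta and 0.90 to 0.92 in control. CPM is not divided by gene length, so levels are compared between groups within a gene and not between genes. In bulk RNA, fewer cells of a type and less RNA per cell cannot be told apart. The astrocyte label was checked against a list of markers. All 12 astrocyte genes were tested, and their summed level was 18720 to 21690 CPM in sh-APP, 15000 to 16310 in anti-Abeta and 16900 to 17470 in control. By the edgeR test used below, 9 of the 12 were higher (75%) and 1 lower (8.33%) in sh-APP than in control. In anti-Abeta 4 were higher (33.3%) and 3 lower (25%). Over all tested genes the shares were 25.8% and 27.9% in sh-APP, and 12.7% and 16.6% in anti-Abeta. The sum hides opposed members: Gfap had 5513 to 7180 CPM in sh-APP and 2897 to 2924 in control. Gja1 went the other way, at 1979 to 2297 in sh-APP and 3511 to 3853 in control. Of the 10 melanocyte genes, those for pigment synthesis and antigens were at or near 0: Slc45a2 had no count, Mlana 2, Dct 13, Tyr 21, Tyrp1 29 and Pmel 303 in all libraries together. Reads of human cells can also be lost against a rat genome. Slc24a5, a pigment-cell ion exchanger, had 29.5 to 42.5 CPM in sh-APP, 53.9 to 77.0 in anti-Abeta and 109 to 121 in control, and Mitf, a factor of pigment cells and other cells, had 25.4 to 29.0 CPM in sh-APP, 28.2 to 40.5 in anti-Abeta and 39.7 to 43.3 in control. S100a1 went the other way, with 50.7 to 51.7 CPM in sh-APP, 34.5 to 37.8 in anti-Abeta and 33.0 to 34.8 in control. The list summed to 2280 to 2483 CPM in sh-APP, 3578 to 3866 in anti-Abeta and 4369 to 4450 in control, nearly all of it Gpnmb. Neuronal markers (8 of 8 tested) summed to 152 to 164 CPM in sh-APP, 224 to 290 in anti-Abeta and 333 to 358 in control. Most of that sum was Map2, and the list was mixed in sh-APP against control: 3 genes were higher (37.5%) and 4 lower (50%). Stmn2 had 6.88 to 9.43 CPM in sh-APP and 1.24 to 1.61 in control. The microglial list reached at most 2.12 CPM in any library. The 9 genes of the oligodendrocyte lineage summed to 2738 to 2893 CPM in sh-APP, 2690 to 3019 in anti-Abeta and 2313 to 2392 in control. By that sum every library of both arms lay above control, but most of it was Olig1, at 2211 to 2359 CPM in sh-APP and 1778 to 1860 in control. Pdgfra went the other way, at 16.5 to 17.3 CPM in sh-APP and 32.5 to 34.9 in control. Against control, 1 of the 9 was higher (11.1%) and 2 lower (22.2%) in sh-APP. In anti-Abeta 2 were higher (22.2%) and 1 lower (11.1%). Genes of cell division moved with the groups: 11 of 12 were lower in sh-APP than in control, and their sum was 291 to 389 CPM in sh-APP, 527 to 653 in anti-Abeta and 668 to 711 in control. The part of these markers in the results on ribosomal protein genes was not tested.

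Taken as a family, the ribosomal protein genes held a slightly larger share of all counts in both arms than in control. By replicate number, they held 1.19%, 1.25% and 1.11% of counts in sh-APP, 1.15%, 0.996% and 1.15% in anti-Abeta, and 0.945% and 0.892% in control. Every sh-APP and anti-Abeta library lay above both control libraries. After TMM scaling the same sums were 11233, 11969 and 10585 CPM in sh-APP, 11245, 10091 and 11252 CPM in anti-Abeta, and 10497 and 9663 CPM in control. On that scale the sh-APP libraries stayed above both control libraries, replicate 3 by a narrow margin, and anti-Abeta replicate 2 lay between the control libraries. The shift of the sum therefore depends on the scaling. The share of all counts also rose in genes of the mitochondrial ribosome, a family described below. These held 0.404% to 0.436% in sh-APP, 0.375% to 0.410% in anti-Abeta and 0.363% to 0.365% in control. With library totals the median log2 fold change of all tested genes was itself 0.23 in sh-APP and 0.18 in anti-Abeta against control.

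The balance between the subunits hardly moved. Large-subunit counts were 2.09, 2.03 and 2.05 times the small-subunit counts in sh-APP, 2.11, 2.10 and 2.06 times in anti-Abeta, and 2.03 and 2.06 times in control. The ratio overlapped between sh-APP and control, and anti-Abeta replicate 3 was level with control replicate 2 to the second decimal. The mean share of the large-subunit genes was 0.796% ± 0.0463 in sh-APP (SD, n = 3), 0.744% ± 0.0596 in anti-Abeta (n = 3) and 0.616% ± 0.0230 in control (n = 2). That of the small-subunit genes was 0.387% ± 0.0243 in sh-APP, 0.356% ± 0.0307 in anti-Abeta and 0.302% ± 0.0144 in control. These shares are of library totals. After TMM scaling anti-Abeta replicate 2, with 6839 CPM (large) and 3252 CPM (small), lay between the control libraries in both subunits. Those had 7028 and 6501 CPM (large), and 3469 and 3162 CPM (small). For the small subunit, sh-APP replicate 3 was level with control replicate 1, at 3470 CPM.

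**Figure D1:**
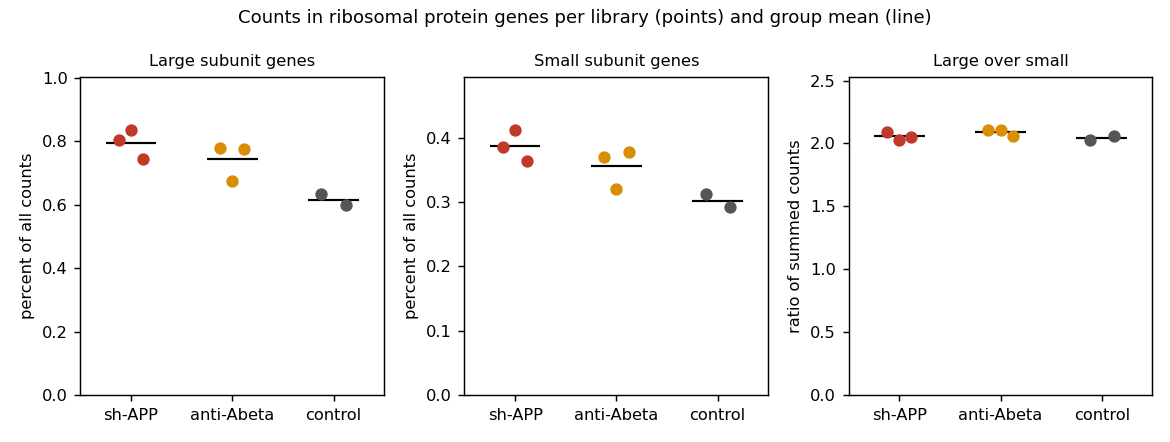
Share of all counts in the 42 large-subunit genes (left, percent) and the 28 small-subunit genes (middle, percent), and the ratio of the summed counts (right), for each library (points) with the group mean (line). In both share panels, which are without TMM scaling, the sh-APP and anti-Abeta points lie above the control points, while the ratio stays between 2.03 and 2.11 in all 8 libraries.

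The first comparison asks what the hairpin against APP in the melanoma cells changed in the astrocytes' ribosomal protein genes. Of the 70 genes, 27 were higher and 15 were lower in sh-APP than in control (edgeR quasi-likelihood test, Benjamini-Hochberg adjusted p under 0.05 over all tested genes). Together these were 60% of the family, against 53.7% of all tested genes, so the count of changed genes is close to the background. In the higher direction it was 38.6% of the family against 25.8% of all tested genes, and in the lower direction 21.4% against 27.9%. Changes were small: the median log2 fold change was 0.13, against 0.03 over all tested genes, and Rps6 and Rpl30, both lower, were the only changed genes past 2-fold. In 34 genes every sh-APP library lay above both control libraries, and in 16 every one lay below, while over all tested genes those shares were 35.7% and 35%.

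**Figure D2:**
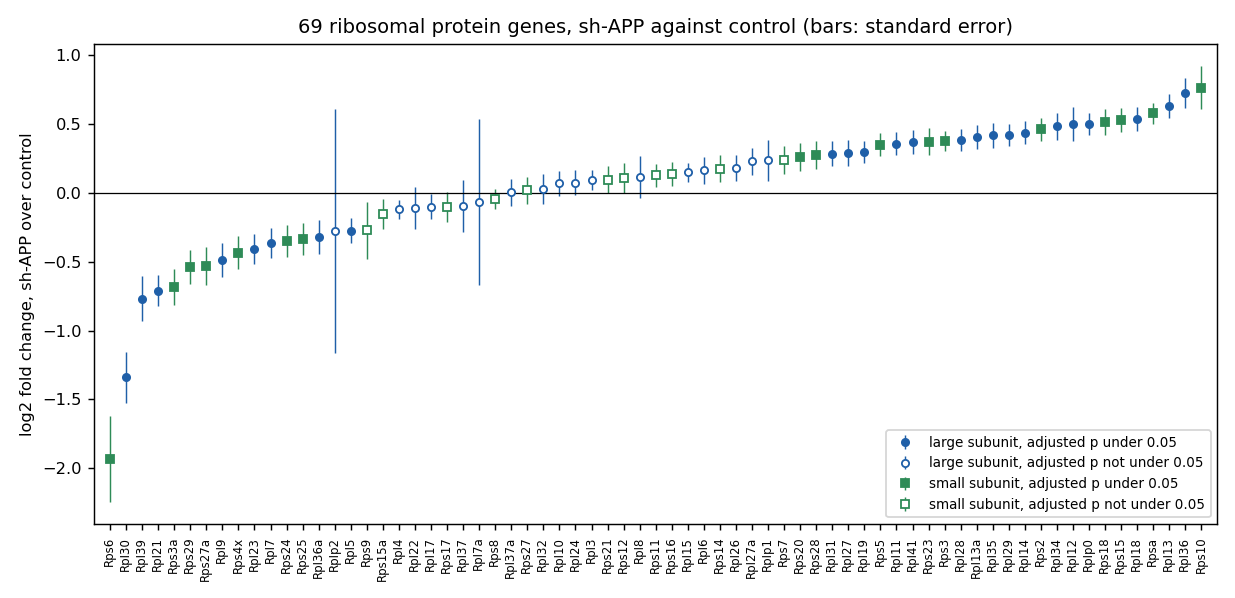
Log2 fold change in sh-APP over control of 69 of the 70 genes (points, bars are standard errors), ordered by fold change, with circles for large-subunit and squares for small-subunit genes and filled symbols for adjusted p under 0.05. Genes of both subunits appear at both ends, from Rps6 at -1.93 to Rps10 at 0.76, and the wide bars belong to Rplp2 and Rpl7a, which had few counts.

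In the large subunit 17 of 42 genes rose (40.5%) and 8 fell (19%). In the small subunit 10 of 28 rose (35.7%) and 7 fell (25%), so neither subunit moved as a block. Over all tested genes 25.8% rose and 27.9% fell, and the lists by place in the ribosome that follow are short. The P stalk, the flexible arm that draws elongation factors to the ribosome, had 2 of its 4 tested genes higher (50%). Its scaffold protein Rplp0 had 937, 914 and 849 CPM in sh-APP, 845, 747 and 853 CPM in anti-Abeta, and 643 and 630 CPM in control. All sh-APP values lay above the control values, by a log2 fold change of 0.50 ± 0.08 (SE, adjusted p = 0.000223). Rpl12, which sits with Rplp0 at the foot of the stalk, had 63.5, 51.4 and 47.5 CPM in sh-APP, 47.9, 41.3 and 45.8 CPM in anti-Abeta, and 39.4 and 37.2 CPM in control. It rose by 0.50 ± 0.12 (adjusted p = 0.00407), with sh-APP replicate 1 well above the other libraries. Rplp1, a protein of the stalk's tip, had 101, 109 and 92.4 CPM in sh-APP, 88.7, 74.6 and 90.5 CPM in anti-Abeta, and 103 and 68.4 CPM in control. Its control libraries enclosed 2 of the 3 sh-APP values, and its log2 fold change of 0.24 ± 0.15 did not pass the test (adjusted p = 0.201). Its partner Rplp2 had too few counts to be read, at -0.28 ± 0.89.

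Rpl5 and Rpl11, the pair that binds 5S ribosomal RNA, changed in opposite directions with TMM scaling. Rpl11 had 154, 165 and 143 CPM in sh-APP, 144, 130 and 143 CPM in anti-Abeta, and 123 and 118 CPM in control. Rpl5 had 264, 269 and 225 CPM in sh-APP, 281, 254 and 277 CPM in anti-Abeta, and 324 and 288 CPM in control. For neither gene did the sh-APP and control values overlap. Rpl11 rose by 0.36 ± 0.08 (adjusted p = 0.00274) and Rpl5 fell by 0.28 ± 0.09 (adjusted p = 0.0219), and the fall of Rpl5 was lost without control replicate 1 (adjusted p = 0.22) and without sh-APP replicate 3 (adjusted p = 0.0881). With library totals its log2 fold change was -0.07 (adjusted p = 0.547).

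Around the exit tunnel, through which the new protein leaves the large subunit, 3 of 7 tested genes rose (42.9%) and 1 fell (14.3%). The risers, Rpl35, Rpl19 and Rpl31, line the tunnel's rim, and each overlaps a named protein-coding gene in the annotation of the later assembly. The one that fell, Rpl39, codes for a small protein of the tunnel wall. Rpl39 had 18.9, 23.0 and 15.7 CPM in sh-APP, 23.6, 25.2 and 24.6 CPM in anti-Abeta, and 38.0 and 27.4 CPM in control. Its sh-APP values all lay below the control values, by -0.77 ± 0.16 (adjusted p = 0.00154), and the control libraries differed widely between themselves. Near the catalytic centre, Rpl3 and Rpl10 did not pass the test. Rpl3 had 839, 810 and 773 CPM in sh-APP, 865, 796 and 829 CPM in anti-Abeta, and 785 and 727 CPM in control, which overlap. The 95% interval of its log2 fold change in sh-APP ran from -0.06 to 0.25, and that of Rpl10 from -0.13 to 0.27.

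Among the other large-subunit genes the largest rises were those of Rpl36, Rpl13 and Rpl18. Rpl36 had 85.5, 91.7 and 78.3 CPM in sh-APP, 70.5, 64.0 and 82.1 CPM in anti-Abeta, and 51.5 CPM in each control library. It stood clear of control in every sh-APP library, at 0.73 ± 0.11 (adjusted p = 0.000133). Rpl13, mutated in a human skeletal dysplasia, had 150, 157 and 148 CPM in sh-APP, 131, 120 and 146 CPM in anti-Abeta, and 101 and 95.6 CPM in control, a rise of 0.63 ± 0.09 (adjusted p = 8.72e-05). Rpl18, mutated in some cases of the human red-cell disease Diamond-Blackfan anaemia, had 328, 347 and 301 CPM in sh-APP, 295, 265 and 309 CPM in anti-Abeta, and 225 and 224 CPM in control, a rise of 0.54 ± 0.09 (adjusted p = 0.000225). In all 3 genes the sh-APP libraries lay above the control libraries without overlap. Rpl13a, which in human monocytes also leaves the ribosome to silence inflammatory messages, rose by 0.40 ± 0.09.

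The largest fall in the large subunit was that of Rpl30, known also as a factor that helps to read selenocysteine codons. It had 8.92, 12.8 and 11.3 CPM in sh-APP, 23.0, 15.2 and 15.9 CPM in anti-Abeta, and 29.1 and 26.6 CPM in control. Every sh-APP library lay below every library of the other groups, and the log2 fold change against control was -1.34 ± 0.19 (adjusted p = 8.29e-05). Rpl21 had 173, 215 and 169 CPM in sh-APP, 219, 206 and 220 CPM in anti-Abeta, and 339 and 268 CPM in control, and fell by 0.71 ± 0.11 (adjusted p = 0.000233). Rpl9 fell by 0.49 ± 0.12, Rpl23 by 0.41 ± 0.11, Rpl7 by 0.37 ± 0.11 and Rpl36a by 0.32 ± 0.12.

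In the head of the small subunit 7 of 13 tested genes rose (53.8%) and 3 fell (23.1%), against 25.8% and 27.9% of all tested genes. The largest rise was that of Rps10, a protein that is tagged with ubiquitin when ribosomes collide. Rps10 had 26.3, 27.7 and 23.5 CPM in sh-APP, 17.7, 17.7 and 25.1 CPM in anti-Abeta, and 15.2 and 15.3 CPM in control. The sh-APP values lay well above control, at 0.76 ± 0.16 (adjusted p = 0.00137). Rps15 rose by 0.53 ± 0.09, Rps18 by 0.51 ± 0.10 and Rps3, which lies at the entry of the messenger RNA, by 0.38 ± 0.07. Rps29, Rps27a and Rps25 fell. Rps27a, whose protein is made as a fusion with ubiquitin, had 82.0, 100.2 and 77.6 CPM in sh-APP, 93.3, 81.1 and 96.7 CPM in anti-Abeta, and 146 and 105 CPM in control, a log2 fold change of -0.53 ± 0.14 (adjusted p = 0.00631). Its sh-APP replicate 2 came close to control replicate 2, and the fall was lost without control replicate 1 (adjusted p = 0.166) and with library totals (-0.33, adjusted p = 0.0589).

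In the body and platform of the small subunit 3 of 15 tested genes rose (20%) and 4 fell (26.7%). These shares are near the 25.8% and 27.9% of all tested genes. Rpsa, also known as a precursor of a laminin receptor, had 466, 466 and 422 CPM in sh-APP, 403, 385 and 425 CPM in anti-Abeta, and 300 and 306 CPM in control. No sh-APP library overlapped control, and the log2 fold change was 0.58 ± 0.08 (adjusted p = 5.35e-05). Rps2, at the messenger entry, and Rps23, at the decoding centre, were the other risers, at 0.46 ± 0.09 and 0.37 ± 0.10. Rps6, the protein that S6 kinases phosphorylate downstream of mTORC1, had 1.44, 1.24 and 1.08 CPM in sh-APP, 1.34, 1.35 and 2.20 CPM in anti-Abeta, and 5.89 and 3.70 CPM in control. It was low in every sh-APP and anti-Abeta library, by -1.93 ± 0.31 in sh-APP against control (adjusted p = 0.000235). Its gene overlaps Dennd4c in the annotation of the later assembly, so its few reads are uncertain. Rps3a had 113, 136 and 103 CPM in sh-APP, 129, 123 and 147 CPM in anti-Abeta, and 214 and 164 CPM in control, a fall of 0.69 ± 0.13 (adjusted p = 0.000746) with no overlap. Rps4x and Rps24 also fell, by 0.43 ± 0.12 and 0.35 ± 0.12. Rps27, which did not pass the test, had overlapping values of 104 to 121 CPM in sh-APP, 95.9 to 110 CPM in anti-Abeta and 100.4 to 119 CPM in control.

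**Figure D3:**
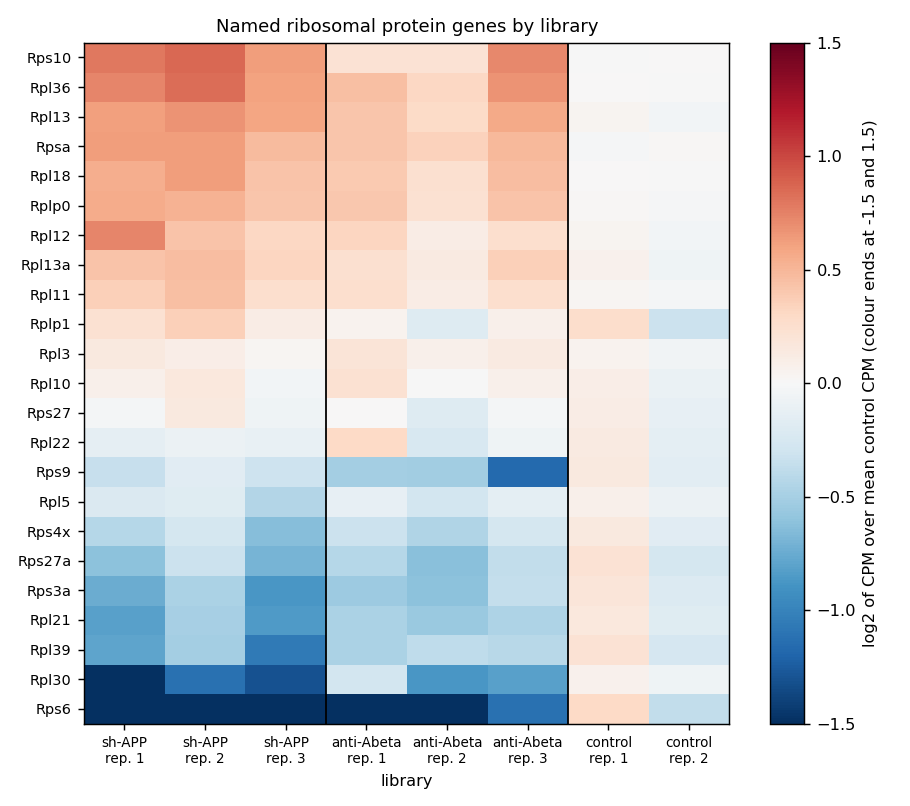
Level of the named genes in each library as log2 of CPM over the mean control CPM (colour, which ends at -1.5 and 1.5), with sh-APP, anti-Abeta and control libraries from left to right. The upper genes are red in the sh-APP libraries and the lower genes blue, and for most of the lower genes control replicate 1 is redder than control replicate 2.

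Fewer of the falls than of the rises were called when a library was left out. Control replicate 1 had a higher level than control replicate 2 for 15 of the 15 genes that fell, for 21 of the 27 that rose and for 25 of the other 28. The 15 genes that fell summed to 1572, 1825 and 1460 CPM in sh-APP, 1801, 1647 and 1872 CPM in anti-Abeta, and 2479 and 2005 CPM in control, so the control libraries differed by more than the lowest of them differed from the highest sh-APP library. The 27 genes that rose summed to 6339, 6668 and 5912 CPM in sh-APP, 5917, 5294 and 6006 CPM in anti-Abeta, and 4676 and 4602 CPM in control. Both sets were chosen by this comparison, so their distance between sh-APP and control is a description alone. When each library was left out in turn, 23 of the 27 higher calls and 5 of the 15 lower calls (Rps6, Rpl30, Rpl39, Rpl21 and Rps3a) were made in every fit, and without control replicate 1 the number of lower genes was 5. Over all tested genes 3723 were higher and 4027 lower with all libraries, and 2729 and 3213 without control replicate 1. With library totals in place of TMM factors, which moves the median of all tested genes to 0.23, 41 ribosomal protein genes were higher and 6 lower in sh-APP.

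The second comparison asks the same of the antibody against amyloid beta, and it shares its 2 control libraries with the first. Here 17 genes were higher and 9 lower in anti-Abeta than in control, 37.1% of the family against 29.2% of all tested genes (edgeR, adjusted p under 0.05). The higher genes were 24.3% against 12.7%, and the lower 12.9% against 16.6%. In the large subunit 12 rose (28.6%) and 3 fell (7.14%), and in the small subunit 5 rose (17.9%) and 6 fell (21.4%). The median log2 fold change of the family was 0.12, against 0.03 over all tested genes. Every one of these calls depended on at least 1 library: without control replicate 1 no ribosomal protein gene was called in either direction, and the number of higher genes was 4 without control replicate 2 and 6 without anti-Abeta replicate 1 or 3. The loss was general: over all tested genes 1832 were higher and 2391 lower with all libraries, 54 and 385 without control replicate 1, and 868 and 1563 without control replicate 2. With all libraries, 23 higher and 12 lower genes had an unadjusted p under 0.05, a count that was not taken over all tested genes. With library totals, 35 genes were higher and 4 lower, at a median of 0.18 over all tested genes.

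The largest rises in anti-Abeta were those of Rpl36 at 0.49 ± 0.11 (adjusted p = 0.00742), Rpl13 at 0.43 ± 0.09 (adjusted p = 0.0055), Rpsa at 0.42 ± 0.08 (adjusted p = 0.00345), Rpl18 at 0.37 ± 0.09 (adjusted p = 0.00942) and Rplp0 at 0.36 ± 0.08 (adjusted p = 0.0079). By the values given above, all 3 anti-Abeta libraries lay above both controls in each of these 5 genes, and anti-Abeta replicate 2 was the lowest of the 3 in each. Rps10 had anti-Abeta values of 17.7 to 25.1 CPM and did not pass the test (0.41 ± 0.16, adjusted p = 0.0691). The largest falls were those of Rps6 at -1.55 ± 0.31 (adjusted p = 0.00505), Rps9 at -0.71 ± 0.21 (adjusted p = 0.0252), Rpl30 at -0.63 ± 0.19 (adjusted p = 0.025), and Rps3a and Rpl21, each at -0.50. Rps9, a protein of the body, had 6.52, 7.39 and 6.73 CPM in sh-APP, 5.82, 5.80 and 3.71 CPM in anti-Abeta, and 9.17 and 7.45 CPM in control. Its anti-Abeta values lay below control, with replicate 3 the lowest. In sh-APP its fold change of -0.27 ± 0.21 did not pass the test, and the difference between the arms was 0.44 ± 0.19 (adjusted p = 0.112). Rps9 overlaps Pirb in the annotation of the later assembly, so its reads are uncertain too.

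The third comparison sets the hairpin directly against the antibody and does not use the control levels. Only Rpl30 was called, lower in sh-APP, so 1.43% of the family changed against 26.1% of all tested genes (edgeR, adjusted p under 0.05). By the values given above its sh-APP libraries lay below all anti-Abeta libraries. The log2 fold change was -0.71 ± 0.17 (adjusted p = 0.0105), and the call was made in each of the 8 fits that left out 1 library, with a largest adjusted p of 0.0438. None of the 70 genes was called higher by edgeR, against 10.1% of all tested genes, and 1.43% was called lower, against 16%. By other counts 9 were higher and 2 lower at an unadjusted p under 0.05, DESeq2 called 2 higher and 1 lower, and limma-voom called 0 higher and 1 lower. Over all tested genes DESeq2 called 1704 higher and 2524 lower, and limma-voom 1480 and 2242. The unadjusted count was not taken over all tested genes. The highest-ranked of the uncalled rises, Rps15, had 100.4, 107 and 95.5 CPM in sh-APP, 86.6, 79.1 and 93.5 CPM in anti-Abeta, and 71.9 and 68.0 CPM in control, a difference between the arms of 0.22 ± 0.08 (adjusted p = 0.0533). Those values do not overlap between the arms. The median of the family was 0.06, against -0.01 over all tested genes.

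The small count does not show that the arms were alike in these genes. Over the 70 genes the median half-width of the 95% interval of the log2 difference between the arms was 0.19, and 61 intervals lay wholly between -0.5 and 0.5. For Rplp0 the interval ran from -0.01 to 0.30, for Rpl3 from -0.18 to 0.10 and for Rps27 from -0.11 to 0.28. Rps6 had a wider interval, from -1.03 to 0.25.

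**Figure D4:**
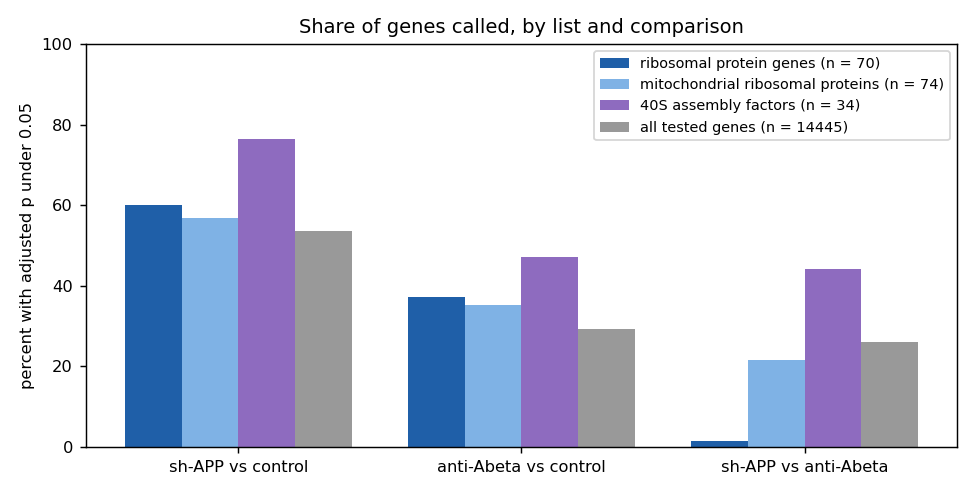
Percent of genes with adjusted p under 0.05 (vertical axis) in each of the 3 comparisons, for the 70 cytosolic ribosomal protein genes, 74 mitochondrial ribosomal protein genes, 34 factors of small-subunit assembly and all 14445 tested genes. The ribosomal protein bar is near that of all genes in both comparisons with control and is 1.43% against 26.1% for sh-APP against anti-Abeta.

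Genes that work with the ribosomal proteins were read from lists chosen by function. Rack1, a signalling scaffold on the small-subunit head whose symbol does not follow the rule, averaged 296 CPM in sh-APP, 293 in anti-Abeta and 254 in control, and was higher in sh-APP than in control, at 0.22 ± 0.07 (adjusted p = 0.0217). Among 8 tested paralogs of ribosomal proteins none was higher in sh-APP than in control, against 25.8% of all tested genes. Of the 8, 2 were lower (25%, near the 27.9% of all tested genes), Rpl22l1 and Rps27l. Rpl22l1, which in mice is repressed by Rpl22, averaged 46.9 CPM in sh-APP, 81.7 in anti-Abeta and 122 in control, at -1.38 ± 0.12 (adjusted p = 5.39e-06). Rpl22 itself had 18.1 to 18.7 CPM in sh-APP, 16.8 to 24.5 in anti-Abeta and 18.0 to 21.7 in control, which overlap, and did not pass the test (-0.11 ± 0.15). Rps27l averaged 118 CPM in sh-APP, 160 in anti-Abeta and 216 in control, at -0.88 ± 0.12, while Rps27 was at 0.02 ± 0.10.

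Among factors that build the ribosome, some rose and others fell, and their counts stand against 25.8% higher and 27.9% lower of all tested genes. In sh-APP against control 8 of 34 factors of small-subunit assembly rose (23.5%) and 18 fell (52.9%), with a median of -0.33. Utp11, of the early small-subunit particle, averaged 62.8 CPM in sh-APP, 85.6 in anti-Abeta and 132 in control, at -1.07 ± 0.07. In the direct comparison of the arms 3 of the 34 were higher (8.82%) and 12 lower (35.3%) in sh-APP. Of 32 factors of large-subunit assembly 10 rose (31.2%) and 13 fell (40.6%). Gnl3, a nucleolar GTPase of dividing cells, fell by 1.12 ± 0.09, while Eif6, which keeps free large subunits from joining small ones, rose by 0.65 ± 0.07. Of 13 proteins of the nucleolus and its small RNA particles 4 rose and 4 fell, 30.8% each way. Npm1, a major nucleolar protein, averaged 339.9 CPM in sh-APP, 524 in anti-Abeta and 816 in control, at -1.26 ± 0.10 (adjusted p = 4.08e-06), and Ncl and Nop58 also fell, by 0.79 ± 0.09 and 0.90 ± 0.10. Dkc1, which modifies ribosomal RNA, rose by 0.63 ± 0.09. RNA polymerase I makes ribosomal RNA, and of 15 genes for it and its factors 4 rose (26.7%) and 5 fell (33.3%), near the share over all genes. Rrn3, its initiation factor, fell by 0.97 ± 0.08.

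Other genes whose messages carry the TOP tract gave a mixed picture as well, with 6 of 17 higher (35.3%) and 7 lower (41.2%) in sh-APP than in control. Over all tested genes 25.8% were higher and 27.9% lower. Hnrnpa1, a splicing protein, averaged 214 CPM in sh-APP, 376 in anti-Abeta and 564 in control, at -1.40 ± 0.13. Nap1l1, a histone chaperone, fell by 1.13 ± 0.11 and Tpt1, the translationally controlled tumour protein, by 0.89 ± 0.10. Eef2, which moves the ribosome along the message, was higher in anti-Abeta than in control, at 0.37 ± 0.07 (adjusted p = 0.0039). Of 27 regulators of ribosome synthesis 13 rose (48.1%) and 7 fell (25.9%) in sh-APP, with a median of 0.36. Those named next had the smallest p, and most of them fell although more of the list rose. Rheb, the GTPase that switches mTORC1 on, averaged 133 CPM in sh-APP, 187 in anti-Abeta and 279 in control, at -1.06 ± 0.12, and Rps6kb1, which codes for an S6 kinase, fell by 0.82 ± 0.10. Gabpa, the factor whose motif was counted above, fell by 1.01 ± 0.12. Eif4ebp1, the repressor of cap-dependent translation that mTORC1 inactivates, averaged 105 CPM in sh-APP, 81.4 in anti-Abeta and 62.4 in control, at 0.75 ± 0.09.

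In anti-Abeta against control the same lists also held genes called in each direction, beside 12.7% higher and 16.6% lower over all tested genes. Small-subunit assembly had 4 higher (11.8%) and 12 lower (35.3%) of 34, and large-subunit assembly 4 higher (12.5%) and 11 lower (34.4%) of 32. The nucleolar list had 2 higher (15.4%) and 3 lower (23.1%) of 13, and the polymerase I list 2 higher (13.3%) and 4 lower (26.7%) of 15. Of the other TOP messages 4 were higher (23.5%) and 6 lower (35.3%), and of the regulators 9 were higher (33.3%) and 4 lower (14.8%). Between the arms, where 10.1% of all tested genes were higher and 16% lower, the assembly factors of the large subunit had 4 higher (12.5%) and 6 lower (18.8%) in sh-APP and the regulators 3 higher (11.1%) and 5 lower (18.5%). The nucleolar, polymerase I and other TOP lists each had 0 higher and 4 lower, which was 30.8%, 26.7% and 23.5% in that order.

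The mitochondrial ribosome has its own set of proteins, coded in the nucleus, and served as a family of similar size. In sh-APP against control 25 of 74 tested genes rose (33.8%) and 17 fell (23%), together 56.8%, with a median of 0.08. Over all tested genes 25.8% rose and 27.9% fell, together 53.7%. In anti-Abeta against control 16 rose (21.6%) and 10 fell (13.5%), together 35.1%, against 12.7%, 16.6% and 29.2% of all tested genes. Between the arms 11 were higher (14.9%) and 5 lower (6.76%) in sh-APP, together 21.6%, against 10.1%, 16% and 26.1% of all tested genes. The difference between the families in that last share was not tested.

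**Figure D5:**
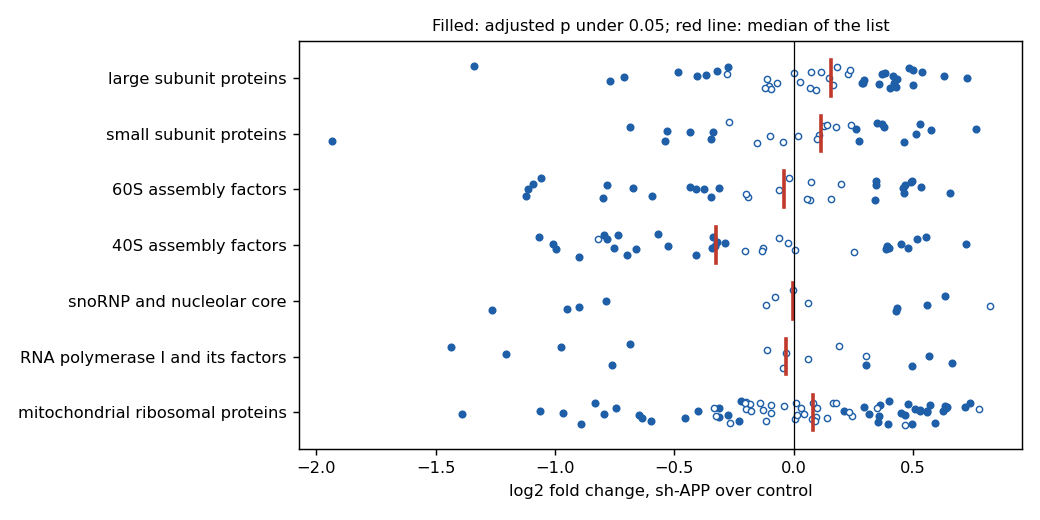
Log2 fold change in sh-APP over control (horizontal axis) of each tested gene (points, filled for adjusted p under 0.05) in 7 lists, with the median of each list (red line). The ribosomal protein genes have medians above 0 in both subunits, and the small-subunit assembly factors have the lowest median, -0.33.

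Outside these lists, the genes most like the family were found by the correlation of their log2 CPM with the mean standardised profile of the 70 genes over the 8 libraries. They were Nedd8, with a Pearson r of 0.961, Amer2 with 0.943 and Tmem59l with 0.938. The 8 points share the 3 groups and the library scaling, and these values describe the ranking alone.

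The annotation of the later assembly placed the 70 genes on 19 chromosomes, with risers on 12 and fallers on 10. A snoRNA gene overlapped 18 of them, which is usual for ribosomal protein genes, and a named protein-coding gene overlapped 10. Those 10 were Rpl9, Rpl19, Rpl27a, Rpl29, Rpl31, Rpl35, Rps6, Rps9, Rps23 and Rps25, so the limit given for Rps6 and Rps9 holds for each. Every one of the 70 had between 1 and 36 named copies in that annotation, with a median of 14, and 24 had a named copy among the deposited genes. The sources used here do not state how reads matching several copies were counted, so the level of every ribosomal protein gene may include or miss reads of its copies.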

How the data were processed

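The values analysed are whole-number read counts of genes, as the authors deposited them. The submitters' processing notes list the rat build rn6, the aligner STAR 2.6.0a and the counter HTSeq 0.11.1, beside Trimmomatic 0.36 and FastQC 0.11.7. The sources used here do not state settings, strand use or the handling of reads with several matches. Of 28546 entries, 8853 had no count and 26 symbols had been turned into dates. All 8 libraries entered a fit by group in edgeR 4.0.16 (R 4.3.3), with TMM factors, filterByExpr (minimum count 10, minimum total 15; 14445 genes kept) and the robust quasi-likelihood test on 5 residual degrees of freedom. Adjusted p-values are Benjamini-Hochberg over these genes, with a threshold of 0.05, and SE is the absolute log2 fold change over the square root of F. Intervals are at 95%, and likeness used log2 of CPM plus 0.5.

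Members and lists were chosen with earlier results of these data known. Named genes are, for each contrast, the 5 changed members that moved most each way, the 4 with the highest and the 4 with the lowest mean CPM, a set chosen by role, and up to 4 changed genes per list with the smallest p. The text adds other members of small counts after their values were seen, and the values of a few genes are not reported here. Alternatives were other scaling factors, filters and thresholds, factors computed without the members, DESeq2 1.42.0, limma-voom (limma 3.58.1), the non-robust test, fits of only the groups compared, a replicate block and leaving out each library.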

Additional observations from a re-analysis of the deposited data

How the results depend on the processing

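Low depth limits Rplp2 and Rpl7a, and 2 control libraries limit every comparison with control. The numbers of genes called higher or lower stayed within 1.5 times the reported ones under all settings not named here. With library totals, sh-APP had 41 higher and 6 lower than control, anti-Abeta 35 higher and 4 lower than control, and sh-APP 6 higher than anti-Abeta. The medians of the family were then 0.34 and 0.28 in sh-APP and anti-Abeta against control, and over all tested genes 5174 were higher and 3091 lower in sh-APP and 3590 higher and 1417 lower in anti-Abeta. At an adjusted p of 0.01, anti-Abeta had 5 higher and 2 lower, and none was lower in sh-APP than in anti-Abeta. Over all tested genes that threshold left 488 higher and 1138 lower in anti-Abeta than in control. It left 1264 lower in sh-APP than in anti-Abeta. Between the arms, 1 gene was higher with DESeq2 size factors, with no filter, with a filter of 1 CPM in 3 libraries and with only those groups fitted, and 2 with DESeq2. Leaving out 1 library gave 23 to 29 higher and 5 to 15 lower genes in sh-APP against control, 0 to 23 and 0 to 11 in anti-Abeta against control, and 0 to 4 (4 without anti-Abeta replicate 3) and 1 to 3 (3 without sh-APP replicate 2) between the arms. Over all tested genes those ranges were 2729 to 3867 and 3213 to 4087, 54 to 1976 and 385 to 2799, and 744 to 1477 and 1489 to 2219 in that order.

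Among the named genes, direction turned only for ones that did not pass the test, and the cause was not tested. In sh-APP against control, Rpl22 turned with library totals (0.10), and Rpl7a with library totals (0.13), limma-voom (0.027) and the replicate block (0.021). In anti-Abeta against control, Rplp1 turned with library totals (0.14), limma-voom (0.0091) and the block (0.0041), Rps27 with library totals (0.085) and Rpl22 with limma-voom (-0.0039). Between the arms, Rpl10 (0.016) and Rpl3 (0.013) turned with library totals. Leaving out 1 library gave ranges that cross 0 in sh-APP against control for Rplp2 (-0.88 to 0.68), Rps27 (-0.082 to 0.15), Rpl7a (-0.55 to 0.70), Rpl22 (-0.23 to 0.041), Rpl10 (-0.013 to 0.18) and Rplp1 (-0.013 to 0.57). In anti-Abeta against control they did so for Rpl22 (-0.15 to 0.15), Rplp1 (-0.28 to 0.29), Rps27 (-0.19 to 0.044) and Rpl7a (-1.06 to 0.19), and between the arms for Rpl10 (-0.081 to 0.030), Rps27a (-0.18 to 0.012) and Rpl22 (-0.22 to 0.037).

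With the replicate number as a block, 25 genes were higher and 14 lower in sh-APP than in control, 13 and 7 in anti-Abeta, and 0 and 1 between the arms. Over all tested genes the block gave 3463 higher and 3865 lower, 1310 and 2170, and 1344 and 2331 in that order. Libraries with the same number share only that number: the correlation of their deviations between sh-APP and anti-Abeta was 0.16, 0.155 and -0.0452, so the block is given here and nowhere else.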
